A study of Mus musculus with 8 samples.

Results

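The regions described here are the PRDM10 ChIP-seq peaks that lie at annotated promoters of 1 DNA strand only, called one-strand peaks below. A promoter was taken as the annotated transcription start site (TSS) of a GENCODE vM21 transcript plus the 1 kb upstream of it, and a peak was a member if it shared at least 1 bp with promoters of plus-strand transcripts or of minus-strand transcripts, but not of both. Of the 528 peaks in the EtOH list, 284 were members (53.8%, Wilson 95% interval 49.5% to 58.0%), 158 of them at plus-strand and 126 at minus-strand promoters. Of the others, 92 touched promoters of both strands and 152 touched none. The 4-OHT list held 86 members among its 176 peaks (48.9%, interval 41.6% to 56.2%), 50 plus and 36 minus, beside 29 peaks at promoters of both strands and 61 at none.

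The cells were mouse embryonic stem cells (mESCs) with both *Prdm10* alleles floxed and a CreERT2 recombinase at *Rosa26*, grown in serum with LIF. The EtOH group (*Prdm10*F/F; *Rosa26*-CreERT2) received the ethanol vehicle, and the 4-OHT group received 50 nM 4-hydroxytamoxifen, which activates the recombinase and deletes the floxed exon, for 24 h (labelled *Prdm10*del/del; *Rosa26*-CreERT2). By the paper's methods, the cells were then washed and seeded, and they were harvested for ChIP later than the end of this treatment. Each group had 3 ChIP samples, each with another polyclonal antibody to PRDM10, and 1 input sample. The deposited lists pool the 3 ChIP samples of a group, so no peak has a replicate error, the lists do not give the reads behind a value, and intervals cover the sampling of peaks only.

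PRDM10 is a zinc finger protein that binds DNA and acts on transcription. Start sites of opposite DNA strands often lie close together, head to head, and share 1 GC-rich stretch of DNA. Where the annotated promoters are of 1 strand only, the direction of a bound sequence can be compared with the direction of its gene. The fixed letters of the study's PRDM10 logo served as a core to search for. The logo was discovered in peaks of this experiment, so how often the core occurs in them, and with which bases, is no independent evidence of binding. This core is TGGT and CC with 5 bases between them. The core does not read the same on both strands and so has a direction, with TGGT at its 5′ side.

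The members with the highest signal values show what these sites look like. The 5 of the first 10 members by signal value that held a core within 100 bp of their summit are printed below (GRCm38, 30 bases, read along the core, with the fixed letters in capitals).
Rnf44, chr13:54694000-54694029, plus strand: ccagccgaaTGGTccgccCCgcctcacagc
Pip5k1c, chr10:81293202-81293231, plus strand: cgtggcgcgTGGTctcgaCCgcctgcttcg
2410006H16Rik, chr11:62602715-62602744, minus strand: ttgagcgagTGGTctcccCCgccccggggg
Taf15, chr11:83472910-83472939, plus strand: ggagggcatTGGTactttCCtctctcaatt
Asah1, chr8:41374678-41374707, minus strand: tgccgtgcaTGGTgtggcCCagggtcgctg

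The cores at *Rnf44*, *2410006H16Rik* and *Taf15* lay upstream of any annotated transcript, that of *Pip5k1c* lay in an intron, and that of *Asah1* overlapped an exon that the annotation gives as UTR or coding by transcript. The printed core is the one nearest the summit, and *2410006H16Rik* and *Asah1* held 2 cores each. At *Pip5k1c*, *Taf15* and *Asah1* the printed core pointed the way the gene is read, and at *Rnf44* and *2410006H16Rik* it pointed the other way. The study's designed gel shift probes show the same letters and what was altered in the mutant, with the 8 bases that differ in capitals. The wild-type probe holds 1 core and the mutant probe none.
WT probe: ctggcacagTGGTcgcGCCCggcccgcc
MUT probe: ctggcacagCAACcgcATTTggcccgcc

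Whole summit windows of 201 bases (100 bp on each side of the summit) are given for 3 strong members, in the direction of the gene, to show how a core sits among other promoter words and how a strong peak can lack one. None overlaps an annotated exon. Capitals mark the fixed letters of cores, CCAAT (the word bound by NF-Y), CCGGAAG (ETS factors) and GGGCGG (SP and KLF factors), on either strand. Bases masked as repeats in the genome were not searched, so the CCGCCC near the 3′ end of the *Rnf44* window is unmarked.
Rnf44, chr13:54693927-54694127, minus strand: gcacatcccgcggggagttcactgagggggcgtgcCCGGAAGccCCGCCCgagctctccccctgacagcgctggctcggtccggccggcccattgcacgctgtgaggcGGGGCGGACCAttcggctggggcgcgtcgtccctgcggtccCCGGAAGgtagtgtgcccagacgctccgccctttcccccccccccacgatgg
Taf15, chr11:83472882-83473082, plus strand: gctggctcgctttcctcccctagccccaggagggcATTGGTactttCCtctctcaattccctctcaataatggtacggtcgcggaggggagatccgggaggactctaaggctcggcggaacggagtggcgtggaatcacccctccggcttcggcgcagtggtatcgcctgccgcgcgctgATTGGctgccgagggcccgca
Galnt10, chr11:57645218-57645418, plus strand: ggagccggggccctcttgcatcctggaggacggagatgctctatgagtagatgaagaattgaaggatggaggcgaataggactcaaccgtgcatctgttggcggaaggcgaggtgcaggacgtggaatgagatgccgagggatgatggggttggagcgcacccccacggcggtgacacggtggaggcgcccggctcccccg

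At *Rnf44* the core overlapped a GGGCGG word, and at *Taf15* its first letters were shared with a CCAAT word read on the other strand. The *Galnt10* window held none of the words and no core, although its peak ranked 6 in the list.

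Signal values, the peak caller's enrichment on a scale of its own for each list, ran from 11.3 to 900 among the EtOH members with a median of 194 (quartiles 78.2 and 411). The strongest member was *Rnf44*, a RING finger gene, at 900. It was followed by *Pip5k1c*, a kinase that makes phosphatidylinositol bisphosphate, at 772. *Tardbp*, which encodes the RNA-binding protein TDP-43, was at 771, and *2410006H16Rik*, which hosts the small nucleolar RNAs *Snord49a* and *Snord49b*, at 764. Next came *Galnt10*, which starts O-linked glycans, at 759, and *Cnot6*, a deadenylase of the CCR4-NOT complex, at 730. The actin-acting monooxygenase gene *Mical3* was at 711, the RNA-binding protein gene *Taf15* at 694, the acid ceramidase gene *Asah1* at 684 and the Polycomb subunit gene *Eed* at 678.

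The weakest members were *Faim2* (18.2), *Magel2* (15.5), *Cpsf4l* (15.3), *Rab28* (13.7) and *Paxip1* (11.3). All 5 lacked a core and a 4-OHT peak, and all 5 had the highest IDR score of 1000, as did 278 of the 284 members. According to the paper, the IDR of this list was taken on splits of the pooled alignments, so the score does not compare the single ChIP samples. The 284 peaks were listed as 281 distinct intervals in 262 regions that do not overlap, so some members share sequence and are not independent.

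The one-strand peaks were compared with the other classes of the list by the share of peaks above the median signal value of all 528 peaks, 131. Of the one-strand peaks, 175 of 284 (61.6%, interval 55.8% to 67.1%) were above it, and of the peaks at no promoter 26 of 152 (17.1%). The difference of 44.5 percentage points (interval 35.6 to 52.0) was significant (two-sided Fisher's exact test, p = 1.04e-19, Benjamini-Hochberg adjusted over 10 tests 1.04e-18). Against the 63 of 92 peaks (68.5%) at promoters of both strands the difference was -6.86 points (interval -17.2 to 4.60, exact p = 0.264, adjusted 0.440), with medians of 194 and 289. When overlapping peaks were counted once, the same difference was -14.9 points (160 of 261 against 61 of 80) and passed the threshold (adjusted exact p = 0.0318). Plus-strand and minus-strand members were above the median in 93 of 158 (58.9%) and 82 of 126 cases (65.1%), a difference of -6.22 points (interval -17.2 to 5.15, exact p = 0.326, adjusted 0.466).

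**Figure D1:**
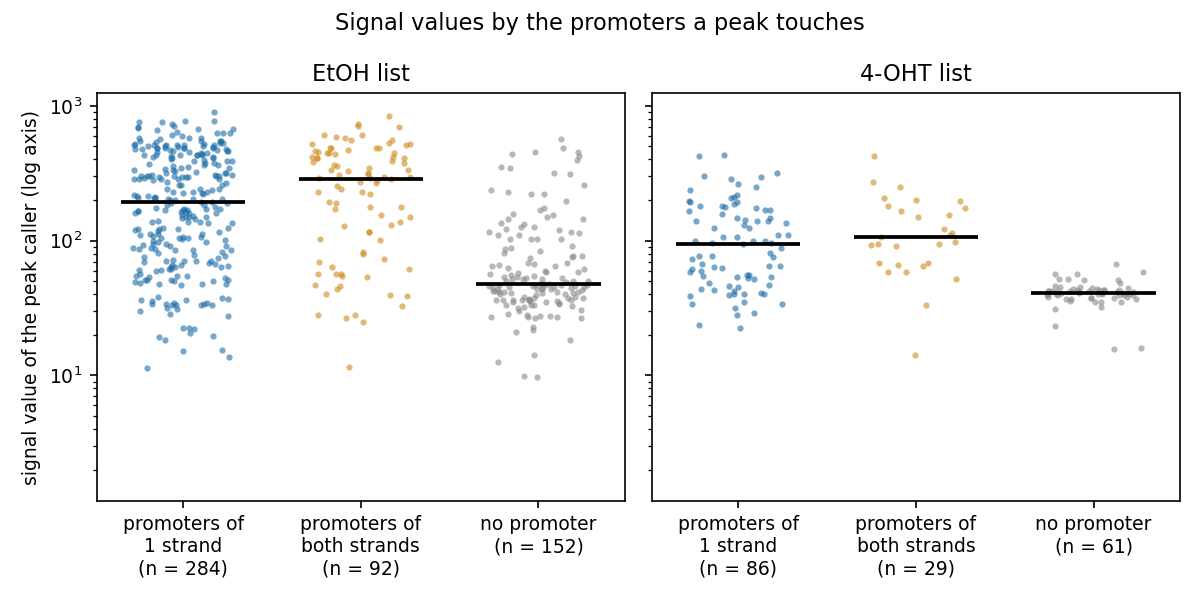
Signal value of every peak (log axis) by the promoters it touches, for the EtOH list on the left and the 4-OHT list on the right. Each point is 1 peak and each bar the median. In the EtOH list the medians are 194 for promoters of 1 strand, 289 for both strands and 47.5 for no promoter, and in the 4-OHT list 95, 107 and 41.2, with wide overlap between the first 2 classes.

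Since the rule takes the upstream side of the start site, the place of the summit is a description only. The summit lay upstream of the nearest start site of a touched promoter in 226 of 284 members (79.6%), at a median of 102 bp upstream. It was within 100 bp of it in 122 members and within 500 bp in 264, and 211 peaks (74.3%) spanned a start site. A start site of the other strand lay within 1 kb of the summit in 26 members (9.15%) and within 5 kb in 60 (21.1%). The members just inside the rule shared 3 bp (*Pip5k1c*), 8 bp (*Rmnd5a*, signal value 151) and 16 bp (*Rax*, 70.3) with a promoter. The peaks just outside it ended 21, 27 and 38 bp from one, with signal values of 120, 62.0 and 46.6. *Gabarapl1* (70.8) and *Gm26805* (50.7) came within 13 and 20 bp of a promoter of the other strand.

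**Figure D2:**
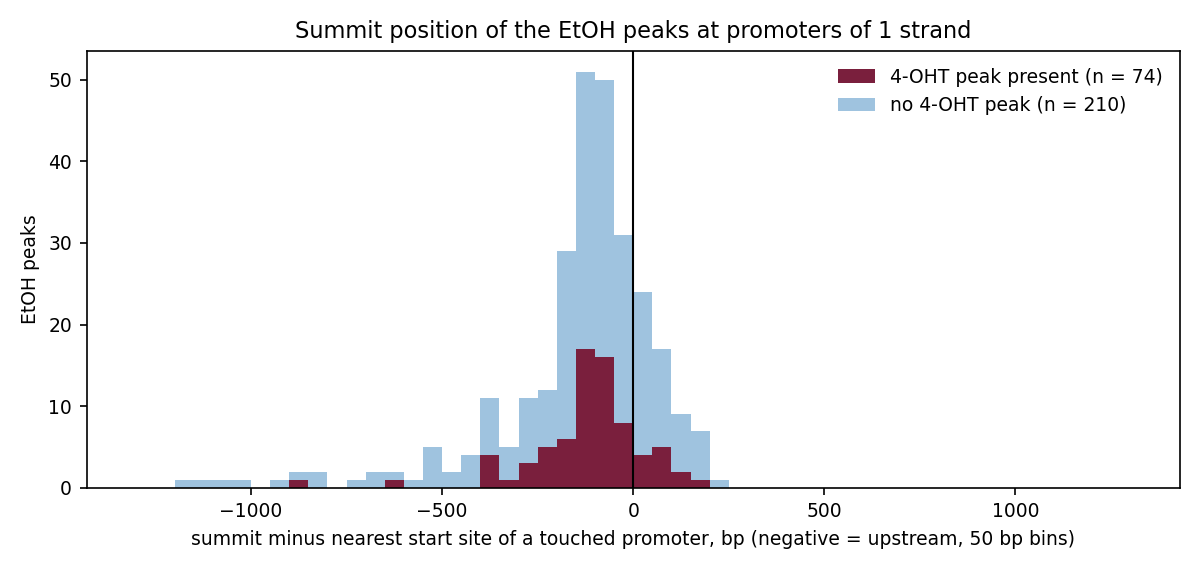
Number of EtOH one-strand peaks by the distance of the summit from the nearest start site of a touched promoter, in bins of 50 bp, negative values being upstream. Dark bars are the 74 peaks with a 4-OHT peak and light bars the 210 without. The summits of both groups crowd within 200 bp upstream of the start site.

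The members touched promoters of 271 annotated genes, 0.489% of the 55450 genes of vM21, of which 247 were protein-coding (1.13% of 21951). By biotype, 266 of the 284 peaks touched a protein-coding gene (median signal value 202). There were 14 at long non-coding genes only (median 86.1), of which 1 had a 4-OHT peak and 7 a core, beside 26.1% and 51.8% of all 284 members. A further 3 touched small RNA genes, with or without a long non-coding gene, but no protein-coding gene, at *2410006H16Rik*, *Epb41l4aos* and *Mir210*. There was 1 at a pseudogene, *Gm8495* (88.3). The last 3 of these are named after their values were seen.

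Gene families were described by symbol and not tested, with the share of their genes set beside the 0.489% of all genes and the 1.13% of protein-coding genes. Chromatin genes had 6 of 123 (4.88%), among them *Psip1* (626), a reader of methylated histone H3, *Ss18* (551), a subunit of BAF complexes, and the histone deacetylase gene *Hdac2* (456). Those 3 had a 4-OHT peak, with values of 217, 93.9 and 125 in that list, and the other 3 had none. Lysosomal genes had 3 of 66 (4.55%), *Asah1* (684), the proton pump subunit gene *Atp6v0c* (325) and the thioesterase gene *Ppt2* (116). RNA-binding and splicing genes had 5 of 177 (2.82%), which include *Tardbp* and *Taf15*.

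Of the translation machinery, cytosolic ribosomal protein genes had 2 of 102 (1.96%), *Rpl19* (504) and *Rpl22* (402), and translation factors 2 of 79 (2.53%), the initiation factor genes *Eif3b* (387 and 91.7 at its 2 listed peaks) and *Eif4a1* (63.6). Aminoacyl-tRNA synthetase genes had 1 of 37 (2.70%), *Lars* (117 and 50.0). With 1 or 2 genes each, these counts are too small to set the lists apart from the 1.13% of protein-coding genes. The 78 mitochondrial ribosomal protein genes, the 104 genes of the respiratory chain and ATP synthase and the 67 histone genes had none, although 3 genes of each of the first 2 lists had an EtOH peak at a promoter touched together with one of the other strand.

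Ubiquitin and proteasome genes had 9 of 410 (2.20%), with *Rnf44* (900), the F-box gene *Fbxl14* (633) and the deubiquitinase gene *Uchl3* (565) the strongest. Cell cycle and chromosome genes had 3 of 126 (2.38%), *Cenpe* (378), a kinesin of the kinetochore, *Cdk16* (104) and *Ccnb3* (97.6). Vesicle traffic genes had 3 of 242 (1.24%), with the small GTPase genes *Rab28* (229 and 13.7), *Rab33a* (165) and *Rab1b* (46.7). Counts of 3 genes are too small to set these lists apart from the 1.13% of protein-coding genes. C2H2 zinc finger genes, the class that PRDM10 belongs to, had 4 of 471 (0.849%), of which *Zfp516* (170), *Zfp580* (121) and *Zfp513* (61.0) had the highest values.

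A 4-OHT peak at the same place, by at least 1 shared bp, marks sites still listed after the deletion was induced. Of all EtOH peaks 20.3% had one, and of the one-strand peaks 74 of 284 (26.1%, interval 21.3% to 31.5%). When at least 50% of both peaks had to overlap, 37 of 284 (13%) had one, and 0 of 152 at no promoter. The widths of the lists largely decide this rule, since one-strand EtOH peaks had a median width of 430 bp, EtOH peaks at no promoter were at most 447 bp wide and the commonest 4-OHT width was 1140 bp, so nothing is read from these 2 counts. Among EtOH peaks of the commonest width, an alternative chosen after seeing the data, 4 of 138 one-strand peaks (2.90%) had one by 1 bp. Over peaks of all widths, 5 of 152 at no promoter (3.29%) had a 4-OHT peak, against the 74 of 284 one-strand peaks (26.1%). That difference was 22.8 points (interval 16.4 to 28.5, two-sided Fisher's exact test, p = 2.02e-10, adjusted 1.01e-09). It was not tested at the commonest width. Among peaks above the median signal value that difference was 24.0 points (69 of 175 against 4 of 26, adjusted exact p = 0.0565) and among those at or below it 3.79 points (5 of 109 against 1 of 126, adjusted exact p = 0.165), so the call was lost within either group. Against peaks at both strands (28 of 92, 30.4%) the difference was -4.38 points (interval -15.5 to 5.66, exact p = 0.420, adjusted 0.526).

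A 4-OHT peak was commoner at members with higher EtOH signal values. It was found for 58 of 87 one-strand peaks in the top signal quartile of the list, then for 11 of 88, 4 of 70 and 1 of 39 in the lower ones. Members with a 4-OHT peak had a median EtOH signal value of 468 (quartiles 366 and 552) and those without one of 134 (62.0 and 254). The ranges overlapped, since *Pip5k1c* (772), *Fbxl14* (633), *Inava* (603), *Them6* (575) and *Gipc1* (544) had no 4-OHT peak and a member at 31.6 had one. Of the 10 strongest members 9 had one, with 4-OHT signal values from 61.8 at *Rnf44* to 434 at *2410006H16Rik*. In their own list these ranked 81 and 1 of 176, so the strongest EtOH member was near the middle of the 4-OHT list.

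**Figure D3:**
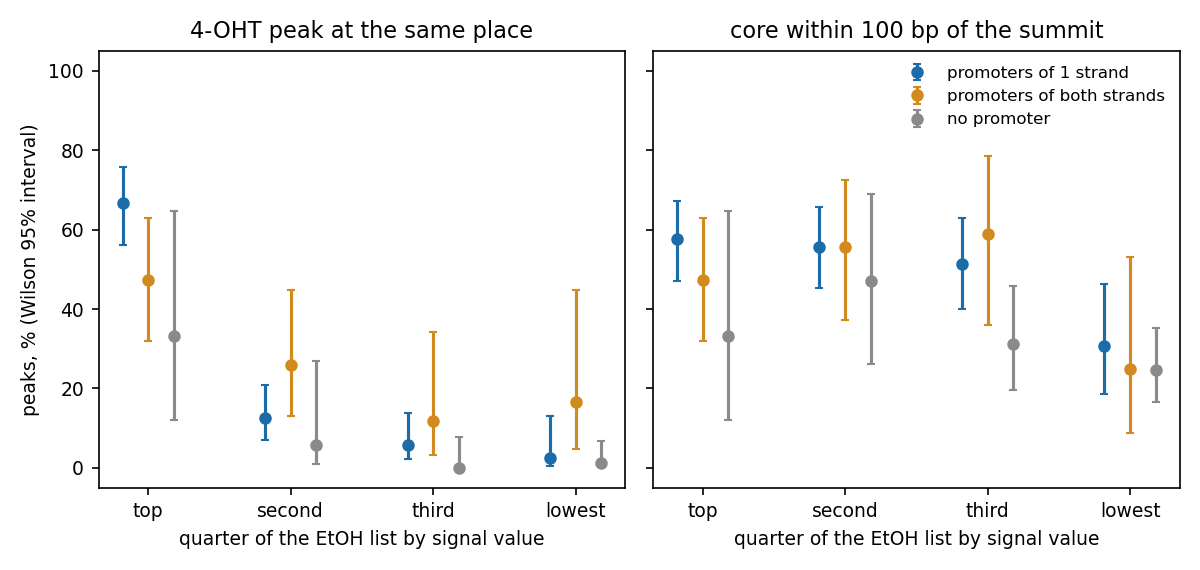
Share of EtOH peaks with a 4-OHT peak (left) and with a core within 100 bp of the summit (right), by signal quartile of the whole list from top to lowest and by class. Points are percentages and bars Wilson 95% intervals. At promoters of 1 strand the share with a 4-OHT peak is 58 of 87 in the top quartile and 1 of 39 in the lowest, while the share with a core is 50 of 87 and 12 of 39.

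The 4-OHT members had signal values of 22.4 to 434 with a median of 95 (quartiles 52.5 and 168). Among their strongest were *2410006H16Rik* (434), *Taf15* (427), *Mical3* (304) and *Prkci* (295), an atypical protein kinase C gene. All 4 were also EtOH members, with 764, 694, 711 and 593 in that list. Of the 86, 72 overlapped a one-strand EtOH peak, 4 an EtOH peak at no promoter, and 10 (11.6%) had no EtOH peak. That number depended on the peaks kept, since it was 1 of 67 with an IDR score of at least 830 in both lists, 1 of 78 when the summit had to lie in the promoter and 2 of 80 with protein-coding transcripts only. It was 50 of 86 (58.1%) when 50% of both peaks had to overlap, a rule that the widths of the lists largely decide. Over the whole 4-OHT list 38.1% of peaks had none. At promoters of both strands it was 0 of 29, and the difference of 11.6 points (interval -1.17 to 20.1) did not pass the test (two-sided Fisher's exact test, p = 0.0634, adjusted 0.127).

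The 10 were *Pwwp2a* (44.0, 34.0 and 33.6 at 3 overlapping peaks), *Mup-ps22* (47.0), *Gm7412* (40.4), *1700025D23Rik* (40.4), *Nif3l1* (39.2), *Gm34176* (38.8), *Pomt1* (35.2) and *Hexim1* (22.4). *Hexim1* had another 4-OHT peak (40.9) that overlapped a one-strand EtOH peak (319), so its promoter was not without an EtOH peak. Of these, 3 touched a pseudogene promoter only and 1 a long non-coding gene only. All 10 were 1140 bp wide, the commonest width of the list, which 40 of the 76 other members shared. Their signal values (22.4 to 47.0, median 39.0) lay low in the range of the 76 (23.7 to 434, median 103). They also differed in sequence, with a median GC content of 44.8% against 62.2%. A core lay within 100 bp of the summit in 1 of 10 against 51 of 76 (67.1%). The logo was discovered in the EtOH peaks, which the 76 overlap and the 10 do not, so nothing is read from that contrast. The IDR scores of the 10 ran from 579 to 841.

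A core lay wholly within 100 bp of the summit in 44.9% of all EtOH peaks and in 147 of the 284 one-strand peaks (51.8%, interval 46.0% to 57.5%). Of windows of the same length centred on all 132633 distinct annotated start sites 8.67% held one, and of those at 54365 protein-coding start sites 9.07%, shares given as a background only, since the core was found in these peaks. Peaks at no promoter held a core in 45 of 152 cases (29.6%), 22.2 points fewer than one-strand peaks (interval 12.5 to 31.0, two-sided Fisher's exact test, p = 8.25e-06, adjusted 2.75e-05). Among peaks above the median signal value that difference was 14.3 points (99 of 175 against 11 of 26, adjusted exact p = 0.414), and among those at or below it 17.1 points (48 of 109 against 34 of 126, adjusted exact p = 0.0298), where it passed the test. Peaks at both strands held one in 45 of 92 (48.9%, difference 2.85 points, interval -8.76 to 14.4, exact p = 0.719, adjusted 0.799).

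Within the members, the core was present in 50 of 87, 49 of 88, 36 of 70 and 12 of 39 peaks from the top to the lowest signal quartile. A single core was found in 114 members, 2 in 26 and 3 in 7. Members with a core had a median signal value of 215 and those without 168, and a 4-OHT peak was present in 46 of 147 (31.3%) and 28 of 137 (20.4%). Among the first 10 members, *Tardbp*, *Galnt10*, *Cnot6*, *Mical3* and *Eed* had no core in the window.

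The bases that the core leaves free were not evenly used. Taking the core nearest the summit in each of the 147 members, the base just before TGGT was C in 8 (5.44%), whereas it was C in 35.3% of the 5309 cores near protein-coding start sites. The first of the 5 free bases was A in 65 (44.2% against 15.4%), the second C or T in 72 and 44 with A in 5 (3.40% against 21.6%), and the third T in 7 (4.76% against 20.2%). The fourth was G in 83 (56.5% against 30.0%). The fifth, just before CC, was C in 66 and T in 53 with A in 7. The base just after CC was G in 60 (40.8% against 21.7%). Single sites departed from these shares, as the G that follows TGGT in *Asah1* shows. These shares are descriptive, as they were looked at after the cores had been chosen.

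The direction of the core was compared with the direction of the gene in the 114 members with a single core. It pointed the way the gene is read in 73 (64.0%, interval 54.9% to 72.3%), more than 50% (two-sided exact binomial test, p = 0.0035, adjusted 0.00876). In windows at all start sites with a single core the share was 52.3% (5535 of 10576), and at protein-coding start sites 53.2%. The share was 38 of 58 at plus-strand and 35 of 56 at minus-strand promoters, 48 of 75 above the median signal value and 25 of 39 at or below it, and 21 of 34 with and 52 of 80 without a 4-OHT peak. With promoters extended 1 kb to both sides of the start site it was 68 of 111 (adjusted exact p = 0.0557), and with cores sought over the whole peak 77 of 128 (adjusted exact p = 0.0668), neither of which passed the threshold.

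The orientation went with the place of the core along the promoter, a pattern noticed in these data and not tested. Of the single cores that lay 100 bp or less upstream of the start site, 37 of 44 pointed with the gene, and of those downstream of it 22 of 25. Of those over 100 and up to 250 bp upstream 10 of 30 did, and farther upstream 4 of 15. Cores that pointed with the gene had their centre at a median of 27 bp upstream of the start site (quartiles -78 and 6), those that pointed against it at 144 bp upstream (quartiles -259 and -101). In windows at all start sites, single cores pointed with the gene in 54.8% of cases upstream and 50.2% downstream. Examples downstream and with the gene were *Pip5k1c* (centre at 211 bp), *Inava* (160 bp), *Slbp* (173 bp), which encodes the histone mRNA stem-loop binding protein, and the DNA methyltransferase gene *Dnmt1* (63 bp). The last 2 were picked after their values were seen. Median signal values were 204 with and 207 against the gene, and a 4-OHT peak was present in 21 of 73 and 13 of 41.

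**Figure D4:**
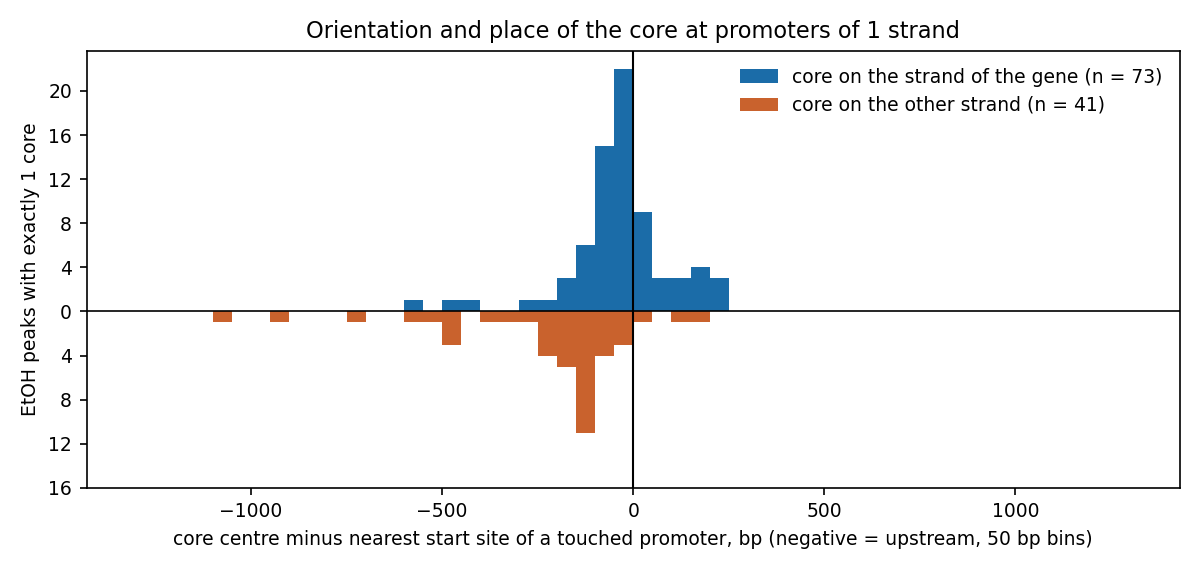
One-strand EtOH peaks with exactly 1 core, by the distance of the core's centre from the nearest start site of a touched promoter in bins of 50 bp, negative values being upstream. Bars above 0 count the 73 cores that point with the gene and bars below 0 the 41 that point against it. The first are densest from 100 bp upstream to 50 bp downstream and the second from 250 to 100 bp upstream.

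The summit itself lay more often on one side of the core, another pattern noticed in these data and not tested. Read along the core, the summit was on the TGGT side of its centre in 90 of 114 members (78.9%), at a median of 41 bp before it (quartiles -64.5 and -7.25). This was so for cores on the plus strand of the genome (47 of 59, median -41) and on the minus strand (43 of 55, median -41). Cores that pointed with the gene lay downstream of the summit (median 42 bp) and those against it upstream (median -41 bp). The summits themselves were at medians of -78 bp and -123 bp from the start site, with overlapping quartiles (-108 to -19 and -225 to -58), and so differed less than the cores did. EtOH peaks at both strands (25 of 33) and at no promoter (28 of 36) had it there too. The 4-OHT members had the summit on the TGGT side in 28 of 38 (median -32.5). Most 4-OHT members overlapped a one-strand EtOH peak, so this count is not independent of that for the EtOH members.

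**Figure D5:**
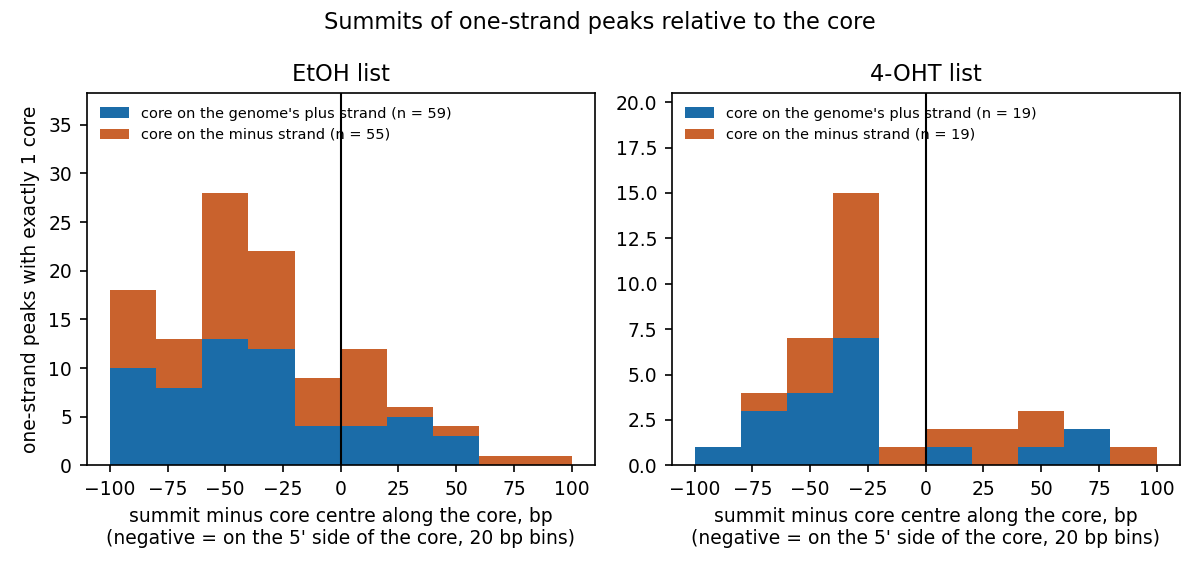
Distance of the summit from the core's centre, read along the core, for one-strand peaks with exactly 1 core, in bins of 20 bp, negative values being on the 5′ (TGGT) side, with the EtOH list on the left and the 4-OHT list on the right. Colours give the strand of the genome that holds the core. On the negative side lie 90 of 114 EtOH and 28 of 38 4-OHT peaks, on both strands of the genome. Most one-strand 4-OHT peaks overlap a one-strand EtOH peak, so the panels are not independent.

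Of the measures of base composition only GC content was tested. The summit window had a median GC content of 61.9% and 61.2%, and 173 of 284 against 57 of 92 were above the median of the list (difference -1.04 points, interval -12 to 10.6, two-sided Fisher's exact test, p = 0.902, adjusted 0.902). The ratio of observed to expected CpG had medians of 0.744 and 0.816, and of 0.271 at no promoter, where the GC content was 52.2%. A GC content above 50% together with a CpG ratio above 0.6, as in CpG islands, was found in 188 of 284 (66.2%), 72 of 92 (78.3%) and 17 of 152 windows (11.2%). The differences in CpG were not tested.

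Of 7 promoter words searched on both strands of the summit window, CCGGAAG, the word of ETS factors, differed between the classes. It was in 18 of 284 one-strand windows (6.34%) and 17 of 92 both-strand windows (18.5%) (two-sided Fisher's exact test, p = 0.00141, adjusted over the 7 words 0.0099), and in 1 of 152 at no promoter. Of windows at all start sites 6.20% held it and at protein-coding start sites 8.33%. The call was lost with promoters on both sides of the start site (18 of 283 against 17 of 120, adjusted exact p = 0.131) and with transcripts tagged basic only (20 of 275 against 14 of 77, adjusted exact p = 0.054). Of the 18 members with the word 14 also held a core, and 4 had a 4-OHT peak, beside 51.8% and 26.1% of all 284 members. The 18 were led by *Rnf44*, whose window above has the word on each side of the core.

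The other words had no difference past the threshold. GGGCGG was in 124 one-strand windows (43.7%) and 41 both-strand windows (44.6%), against 35.1% at protein-coding start sites, and CCAAT in 70 (24.6%) and 23 (25%), against 23.2%. TATAAA, the TATA box, was in 14 (4.93%) and 3 (3.26%), AAGATGG, a word of YY1, in 11 (3.87%) and 5 (5.43%), and CTCGCGAG, bound by BANP, in 1 and 1. GCGCATGCG, the word of NRF1, was in 6 one-strand windows and in none of the 92 (adjusted p from 0.969 to 1 for these 6 words).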

How the data were processed

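PRDM10 ChIP-seq peaks of EtOH-treated and 4-OHT-treated mESCs were analysed from 2 deposited lists. The authors used bwa on mm10 (GRCm38), dropped duplicate and ambiguous alignments, called peaks with SPP on the pooled ChIP samples, removed blacklisted regions and selected by IDR. The submitters' processing notes name BWA 0.7.13, Picard 2.10.6 and SAMtools 1.2. Signal in the deposited files is the enrichment that SPP gave a peak, and it was compared only within a list. The score is the IDR score set by the authors, at most 1000, and the summit is another deposited column, counted from the peak's first base. The deposited p-value and FDR columns were not used. The study's methods state an approximate raw depth of the libraries, but the lists give no count of reads kept after filtering, hence the depth behind each value and its precision are not known here, and peaks are not replicates.

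Peaks were placed on GENCODE vM21 promoters and GRCm38.p6 sequence, in which bases masked as repeats did not match a word. Shares were compared by Fisher's exact test or an exact binomial test, adjusted by Benjamini-Hochberg over 10 tests (words over 7), and differences have Newcombe intervals built from Wilson intervals. The members, gene lists and tests were chosen with earlier results of these data known, and the gene lists were made by symbol. Genes named are the 10 strongest EtOH members, the 5 strongest without a 4-OHT peak, the 5 weakest, up to 3 per gene list, the 5 strongest 4-OHT members and those without an EtOH peak. A gene that this rule names is not reported here. Others are the peaks nearest the limits of the rule or examples said to be picked later. On simulated data, 200 of 200 strand classes, 200 of 200 planted cores and 100 of 100 overlaps of 1 bp were recovered. Alternatives covered the promoter length, transcript set, summit in place of peak, overlapping peaks, IDR score, overlap, window, repeats, a 14-base reading of the logo and signal value. Tests used scipy 1.17.1 and numpy 2.4.6 in Python 3.11.15, tables pandas 2.3.3, sequence pyfaidx 0.9.0.4, and plots matplotlib 3.10.9.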

Additional observations from a re-analysis of the deposited data

How the results depend on the processing

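Over 132 results under alternatives, 112 kept their direction and their side of the threshold. No paired analysis was possible because the lists are pooled over the 3 ChIP samples, and for the same reason no sample could be left out. Differences below are in percentage points and their cause was not tested. With 500 bp promoters the GC difference between one-strand and both-strand peaks was 3.12, with protein-coding transcripts only 5.51, with transcripts tagged basic 2.81 and with the summit base only 1.43, against -1.04. With promoters on both sides of the start site the share of cores pointing with the gene was 11.3 above 50%, the difference between strands in signal was 0.33, and 0 words differed, as also with basic transcripts (0), against 1. Cores sought in the whole peak pointed with the gene 10.2 above 50%. The difference in core share between one-strand and both-strand peaks, 2.85, was -0.929 with the summit base only, -4.16 over the whole peak and -0.791 at or below the median signal value. With overlapping peaks counted once the difference in signal was -14.9. Above the median signal value the difference in 4-OHT peaks was 1.33 against both strands and 24 against no promoter, and that in cores 14.3 against no promoter, where fewer peaks were tested. At or below it the difference in 4-OHT peaks against no promoter was 3.79. With EtOH peaks of the commonest width only, an alternative chosen after seeing the data, 138 of 300 peaks were members, the difference in signal was 9.66 and that in cores -0.322. Since the lists hold no count of filtered reads, the absence of a peak from a list does not show that a site was unbound.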
